A study of Saccharomyces cerevisiae with 12 samples.

Results

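Yeast grown with glucose and potassium restricted together was compared with yeast grown with neither restricted. The 2 groups were chosen by medium alone: 3 RNA sequencing libraries from 0.5% glucose with 1 mM potassium (K), called here the doubly restricted medium, and 3 from 2% glucose with 7 mM K, the unrestricted medium. They make up 6 of the 12 libraries, and the other 6 come from the media with a single restriction, 2% glucose with 1 mM K and 0.5% glucose with 7 mM K. Every library came from the haploid laboratory strain BY4742, labelled wild type, and all 12 carried 1 batch label. The labels call the replicates of a medium independent biological replicates. Growth stage and cell density at harvest were not stated, so cells of 2 media may have been taken at different points of growth.

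In budding yeast, glucose is the preferred carbon source, and while it is plentiful the cell represses genes for respiration, gluconeogenesis and the use of other carbon sources. When glucose falls, the Snf1 kinase lifts that repression. Potassium is the main cation inside the cell. It enters through the transporters Trk1 and Trk2, driven by the membrane potential that the proton pump Pma1 builds. Nutrient supply is also read by the TORC1 and protein kinase A pathways, which set ribosome synthesis, entry into the cell cycle from G1 and the level of stress genes. Glucose restriction is a widely used form of caloric restriction in yeast lifespan work.

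Each of the 6 libraries carried between 5634205 and 6987994 yeast counts, and 6127 genes had enough counts to test. Levels are CPM, each gene's count as a share of all yeast counts on a fixed scale, after TMM scaling. Differences are log2 fold changes, doubly restricted over unrestricted, and n = 3 libraries in each group. The value after ± is an approximate standard error (SE). It is the size of the log2 fold change divided by the square root of edgeR's F statistic. A gene is said to rise or fall where edgeR's quasi-likelihood test passed 0.05 after adjustment over the tested genes by the method of Benjamini and Hochberg. The first principal component of the 6 libraries separated the media and carried 85.0% of the variance, and the second carried 8.52%. Doubly restricted replicate 3 stood somewhat apart, with 190 genes over 2-fold above or below both partners against 19 to 41 in the other 5 libraries. Ribosomal RNA took 2.29% to 2.62% of yeast counts in the doubly restricted libraries and 0.793% to 1.02% in the unrestricted ones. Whether this share plays a part in the differences below was not tested.

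Markers of the strain were looked at next. URA3, LEU2 and LYS2, which BY4742 lacks, and the a-factor genes MFA1 and MFA2 had 0 counts in all 12 libraries, which allows up to 3 counts per library. Not every marker of mating type a was silent. Of 6 such genes, 3 had enough counts to test, and 2 of these fell. Of 14 markers of mating type alpha and haploid cells, 8 rose and 2 fell. The alpha-specific pheromone gene MF(ALPHA)1 measured 371, 348 and 267 CPM in the doubly restricted libraries and 68.9, 58.4 and 51.0 CPM in the unrestricted ones. It was therefore present in both groups and higher in the doubly restricted one, by 2.47 ± 0.17 in log2 (edgeR adjusted p = 2.94e-06). HIS3, of which BY4742 carries a partly deleted copy, measured 23.8, 23.7 and 18.2 against 177, 149 and 144 CPM. The groups did not overlap, and what is left of the gene fell by 2.83 ± 0.14.

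Between the doubly restricted and the unrestricted medium, 64.3% of the 6127 genes tested changed: 2010 rose (32.8%) and 1931 fell (31.5%). Changes past 2-fold were 873 upward and 735 downward, and past 4-fold 257 (4.19%) and 174 (2.84%). The values of the 2 groups did not overlap for 70.4% of genes. Over all genes the median log2 fold change was 0.03, and -0.09 with libraries scaled by the counts at rows with WBGene identifiers, so values are relative to the TMM scale. With so many genes changed, each group of genes below is read against 32.8% rising and 31.5% falling among all genes. In bulk RNA, a change in the share of cells in a given state and a change in RNA per cell cannot be told apart.

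**Figure D1:**
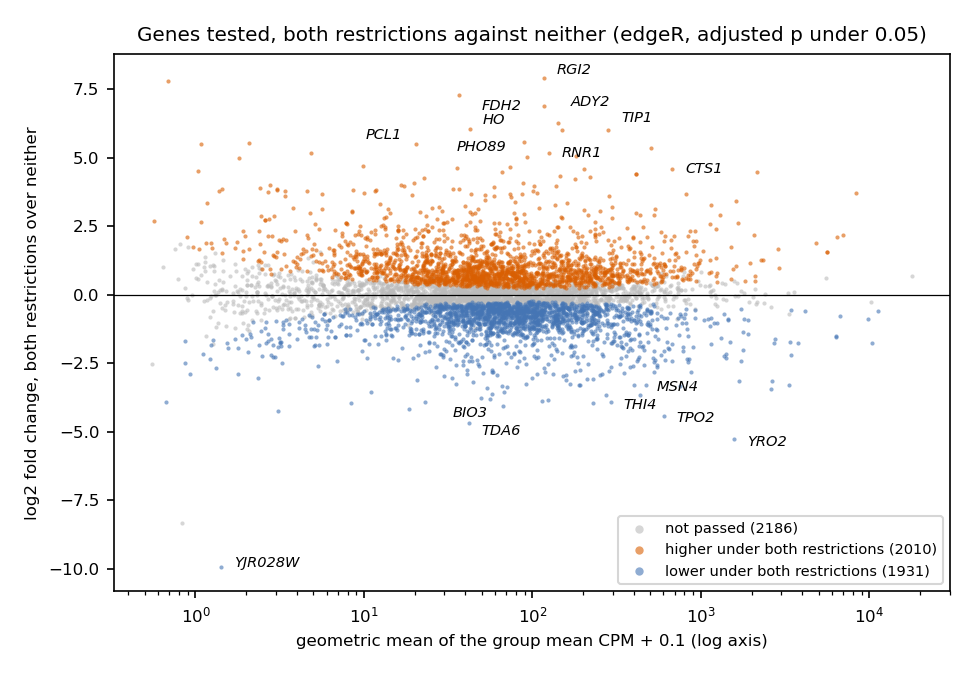
Each point is 1 of the 6127 genes tested, with its mean level on the horizontal axis (geometric mean of the 2 group means in CPM, log axis) and its log2 fold change, doubly restricted over unrestricted, on the vertical axis. The 2010 genes that rose are orange, the 1931 that fell are blue and the rest are grey; RGI2 lies highest and, among genes detected in all 6 libraries, YRO2 lies lowest of those named.

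The largest rise among the genes named was that of RGI2, a gene linked to respiratory growth (chromosome IX, 247902 to 248396, genome build R64). It measured 1499, 1975 and 1938 CPM in the doubly restricted libraries and 7.33, 6.19 and 9.17 CPM in the unrestricted ones. Every doubly restricted library was over 100-fold above every unrestricted one, and the log2 fold change was 7.90 ± 0.26 (edgeR adjusted p = 1.85e-07). The acetate transporter gene ADY2 (chromosome III, 132273 to 133124) measured 692, 971 and 2099.5 against 14.7, 17.3 and 16.6 CPM, with doubly restricted replicate 3 the highest. Its log2 fold change of 6.27 ± 0.45 was 5.67 without that replicate. FDH2 and the adjoining YPL276W, which the annotation lists as pseudogenes on chromosome XVI and which resemble the formate dehydrogenase gene FDH1, rose by 6.90 and 7.30. FDH1 rose by 4.66, or 3.71 without doubly restricted replicate 3, and reads of near-identical copies may have been divided among these rows.

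Other genes among the 10 highest were HO, the mating-type endonuclease gene, the cell wall genes SCW4 and TIP1, the sodium and phosphate cotransporter gene PHO89, the G1 cyclin gene PCL1 and the peroxisomal catalase gene CTA1. They rose by 6.07, 6.01, 6.00, 5.56, 5.52 and 5.37. CTA1 (chromosome IV, 968133 to 969680) measured 2590.0, 2824 and 4352 CPM against 81.0, 78.3 and 76.4 CPM. HO (chromosome IV, 46271 to 48031), which late G1 cells of the mother lineage transcribe, measured 388, 378 and 272 CPM against 4.40, 4.75 and 6.27 CPM. Only genes whose groups do not overlap could be named among the 10 highest, so the separation of these 6 genes follows from that rule.

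Among genes detected in all 6 libraries, the largest fall of those named was that of YRO2, a gene for a plasma membrane protein of the Hsp30 family (chromosome II, 343101 to 344135). It measured 229.7, 269.9 and 263 CPM in the doubly restricted libraries and 9901, 9733 and 9821 CPM in the unrestricted ones. It was 38.6-fold lower in the doubly restricted medium, or -5.27 ± 0.21 in log2 (edgeR adjusted p = 2.35e-07). TDA6 and YNR066C, genes of unknown function, changed by -4.66 ± 0.20 and -4.18 ± 0.19, the biotin synthesis gene BIO3 by -4.07 ± 0.16, the thiamine transporter gene THI7 by -3.93 ± 0.14, the thiamine synthesis gene THI4 by -3.93 ± 0.17 and the dihydroxyacetone kinase gene DAK2 by -3.90 ± 0.36. An unnamed row, S000001614, fell by 3.94 ± 0.24. YJR028W, a retrotransposon gene with many near-identical copies, had 0 counts in all 3 doubly restricted libraries and 263, 21 and 91 counts in the unrestricted ones, at least 38.05-fold lower against a floor of 3 counts per library. Its call (edgeR adjusted p = 0.00703) was lost without doubly restricted replicate 3, at an adjusted p of 0.182, and under scaling by WBGene rows, at 0.150.

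Genes for making ribosomes were higher in the doubly restricted medium across nearly all of their number. Of 134 tested genes for cytosolic ribosomal proteins, the structural parts of the ribosome, 118 rose and 16 did not pass, with a median log2 fold change of 0.81. Of 95 genes for ribosome biogenesis, which transcribe, cut, modify and assemble ribosomal RNA, 84 rose, 2 fell and 9 did not pass, with a median of 1.00. RPS22B, for a small-subunit protein, measured 124, 123 and 123 CPM in the doubly restricted libraries and 21.2, 18.0 and 18.3 CPM in the unrestricted ones. The groups were far apart and each was tight, and RPS22B rose by 2.69 ± 0.11 (edgeR adjusted p = 2.35e-07). RPS22A, RPL9A and RPS9A rose by 2.26 ± 0.15, 2.21 ± 0.15 and 2.21 ± 0.15; like most ribosomal protein genes they have a near-identical paralog, and the split of reads between the copies is uncertain.

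NOP1, which encodes the methyltransferase fibrillarin (chromosome IV, 427364 to 428347), measured 264, 309 and 209 CPM against 57.0, 60.9 and 51.8 CPM. All 3 doubly restricted libraries lay above all 3 unrestricted ones, and it rose by 2.21 ± 0.16. The RNA helicase gene HAS1 and the large-subunit assembly genes BRX1 and NOP16 rose by 2.06 ± 0.16, 2.04 ± 0.14 and 1.87 ± 0.10. SFP1, which encodes an activator of ribosomal protein and biogenesis genes, went the other way. It measured 138, 133 and 136 CPM against 243, 249 and 229 CPM and fell by 0.82 ± 0.10 (edgeR adjusted p = 9.60e-05). Fitted together with the single-restriction libraries, which held the less uniform 0.5% glucose 7 mM K group, 45 ribosomal protein and 46 biogenesis genes passed upward in place of 118 and 84, while 22.8% of all genes rose in that fit.

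Spacers of the ribosomal RNA precursor were also measured. ETS1-1, the external spacer that is cut from the precursor of ribosomal RNA (chromosome XII, 457733 to 458432), had 3762, 6646 and 19622 counts in the doubly restricted libraries and 605, 567 and 549 counts in the unrestricted ones. The doubly restricted replicates differed among themselves by more than 5-fold, yet all lay above the unrestricted ones. The log2 fold change was 4.40 ± 0.64, and 3.29 without doubly restricted replicate 3; ETS1-2, another copy of this spacer in the ribosomal DNA, had almost the same values, and reads of the copies cannot be told apart. The internal spacer ITS1-1 rose by 2.14 ± 0.43, or 1.45 without that replicate. These 2 spacers were chosen after their values were seen. The rows of mature ribosomal RNA also rose, with RDN25-1 at 1.55 ± 0.21 and RDN18-1 at 1.27 ± 0.20, and how far the removal of ribosomal RNA differed between libraries was not tested.

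Windows upstream of ribosome biogenesis genes were read for the letters of the PAC element, GATGAG on either strand, since these genes rose together. A window covered the 300 bases from 400 to 101 bases upstream of the start codon in RefSeq's R64 sequence. The letters occurred in 66 of 95 of the biogenesis windows (69.5%) and in 18.3% of the windows of all tested genes. The windows of NOP1 and BRX1 are shown because both genes rose about 4-fold, written 5′ to 3′ toward the gene, with the match, here on the opposite strand as CTCATC, in capitals:
NOP1 (chrIV:426964-427263, plus strand): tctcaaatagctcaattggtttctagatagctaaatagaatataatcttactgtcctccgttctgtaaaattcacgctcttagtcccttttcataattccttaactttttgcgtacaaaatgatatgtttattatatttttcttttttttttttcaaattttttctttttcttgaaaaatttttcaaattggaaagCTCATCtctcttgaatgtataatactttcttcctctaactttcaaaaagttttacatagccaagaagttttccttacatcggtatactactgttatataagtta
BRX1 (chrXV:186824-187123, minus strand): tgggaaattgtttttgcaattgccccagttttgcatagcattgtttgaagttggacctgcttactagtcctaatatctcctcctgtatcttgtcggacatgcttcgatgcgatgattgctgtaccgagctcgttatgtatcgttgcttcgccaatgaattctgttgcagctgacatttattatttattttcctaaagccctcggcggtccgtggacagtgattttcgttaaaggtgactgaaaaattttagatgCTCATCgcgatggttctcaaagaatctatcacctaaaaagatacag

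Each of these windows holds 1 match, and it is a description of the sequence, not of a bound site.

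Mitochondrial ribosomal proteins, which translate the few proteins of the mitochondrial genome, rose in 33 of 72 genes against 2 that fell, with a median of 0.33. RSM10, for a small-subunit protein, measured 139.9, 177 and 235 CPM against 52.0, 50.2 and 46.6 CPM and rose by 1.89 ± 0.18. The count of rises was 19 without unrestricted replicate 1, where 26.3% of all genes rose, and 11 under scaling by WBGene rows, where 22% of all genes rose. The 19 are close to the share of all genes in their setting, and the 11 are a smaller share of the list than 22%. The excess over all genes is therefore lost in both settings. With a fold threshold of 1.5, 9 rose, also a smaller share than the 16.4% of all genes that rose there. Transcripts of the mitochondrial genome itself were few but higher under both restrictions, and all 5 tested rows rose. Ribosomal RNA rows were higher too. They took 2.29% to 2.62% of yeast counts in the doubly restricted libraries and 0.793% to 1.02% in the unrestricted ones. Whether a difference in RNA recovery between libraries plays a part in the mitochondrial rise was not tested. COB, for cytochrome b, measured 10.6, 8.91 and 19.4 CPM against 1.96, 0.864 and 2.09 CPM and rose by 2.98 ± 0.42. BI4, an intron reading frame inside COB, measured 23.3, 35.1 and 69.5 against 3.26, 2.30 and 3.54 CPM and rose by 3.80 ± 0.44, and reads of the 2 rows cannot be separated with certainty. COX1, a gene for a subunit of cytochrome oxidase that was chosen after its values were seen, measured 1.36, 3.92 and 7.01 CPM against 0.978, 0.864 and 0.482 CPM, and its log2 fold change of 2.33 was 1.70 without doubly restricted replicate 3.

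**Figure D2:**
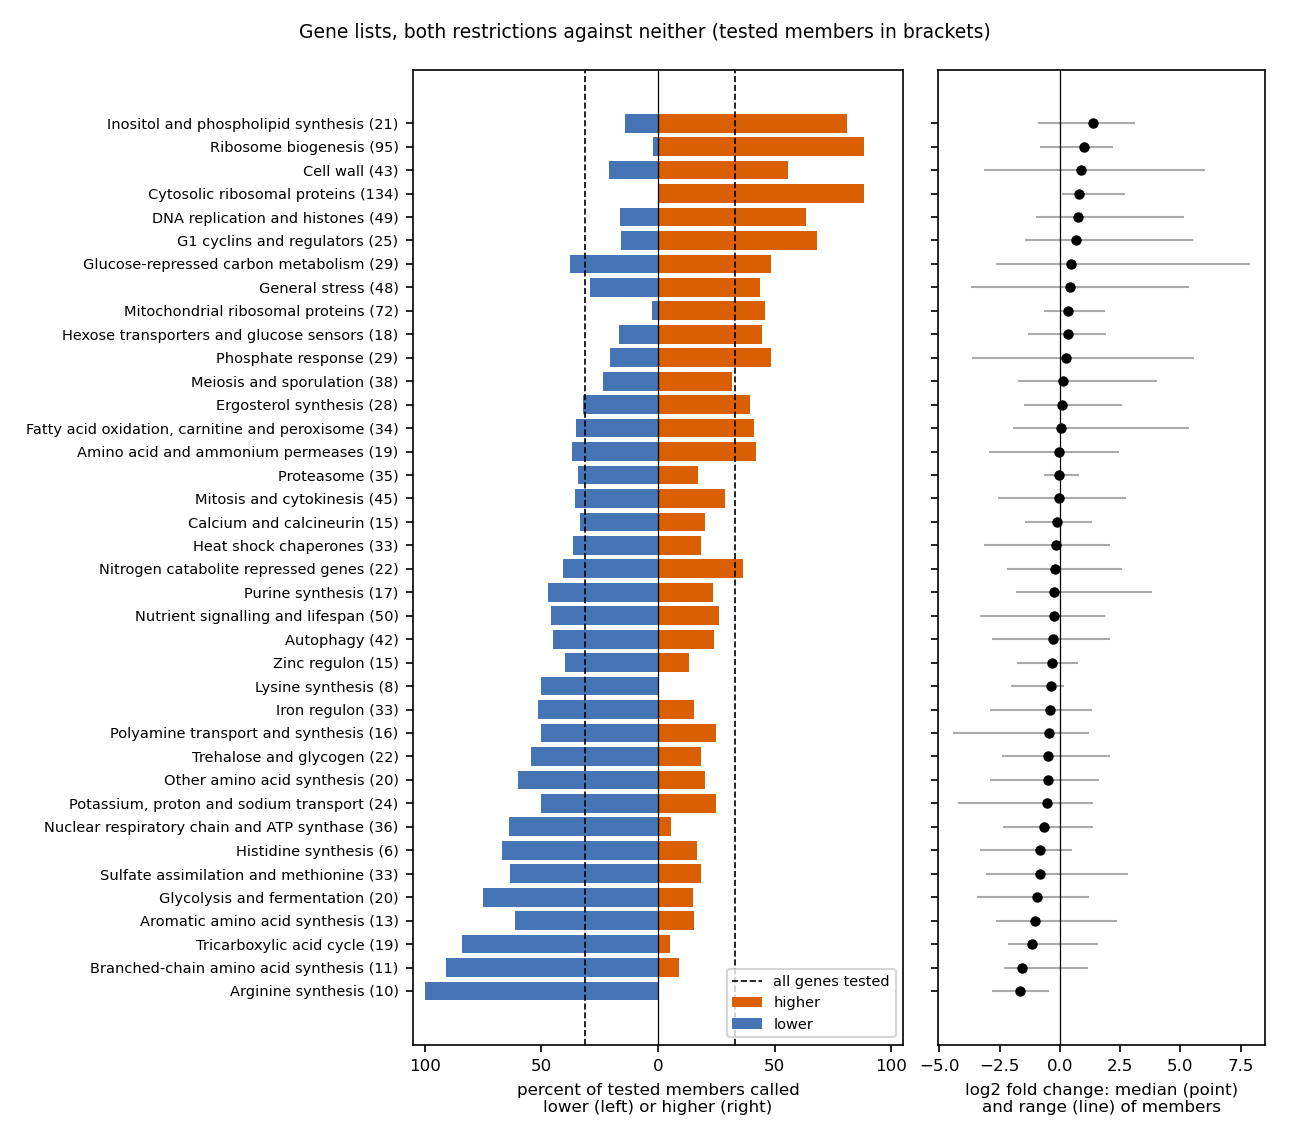
Left, for each of 38 gene lists, the percent of tested members that rose (orange, to the right) or fell (blue, to the left) in the doubly restricted against the unrestricted medium, with dashed lines at 32.8% and 31.5% for all genes tested. Right, the median (point) and the range (line) of the members' log2 fold changes; inositol and phospholipid synthesis has the highest median and arginine synthesis the lowest.

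Genes of the G1 to S transition rose more often than they fell. Passage through this point needs the G1 cyclins, which activate the SBF and MBF transcription factors and so the genes for DNA synthesis. Of 25 G1 cyclin and regulator genes, 17 rose, 4 fell and 4 did not pass (median 0.67), and of 49 DNA replication and histone genes, 31 rose, 8 fell and 10 did not pass (median 0.76). The 8 falls were 4 without unrestricted replicate 1, and 5 without its replicate 3. They were 4 in the 12-library fit or when scaled to total counts, and 5 when scaled to the upper quartile. The G1 cyclin gene CLN2 (chromosome XVI, 64977 to 66614) measured 274, 262 and 227 CPM in the doubly restricted libraries and 26.6, 25.9 and 20.4 CPM in the unrestricted ones, and CLN1 measured 189.8, 183 and 145 against 14.0, 16.3 and 17.2 CPM. Neither gene's groups overlapped, and the log2 fold changes were 3.39 ± 0.14 and 3.44 ± 0.15 (edgeR adjusted p = 2.44e-07 and 2.81e-07). PCL1, a cyclin of the Pho85 kinase, measured 148, 142 and 117 against 2.77, 3.45 and 2.57 CPM, 45.8-fold higher. The S-phase cyclin gene CLB5 rose by 2.38 ± 0.15.

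RNR1, which encodes the large subunit of ribonucleotide reductase (chromosome V, 298950 to 301616), measured 835, 864 and 561 CPM against 21.7, 20.6 and 20.6 CPM. It was 35.9-fold higher, with doubly restricted replicate 3 the lowest of its group and still far above every unrestricted library (5.17 ± 0.21, edgeR adjusted p = 2.37e-07). POL30, for the sliding clamp PCNA, rose by 3.62 ± 0.15, MCD1, for a cohesin subunit, by 4.63 ± 0.19, and DPB2, for a subunit of DNA polymerase epsilon, by 3.07 ± 0.14. The list also held members that fell, among them the helicase gene MCM7 (-0.97 ± 0.13) and the clamp loader gene RFC1 (-0.73 ± 0.12). Of the regulators, MBP1, which encodes the DNA-binding part of MBF, fell by 1.18 ± 0.13, and MSA1, which encodes an activator that works with SBF and MBF, fell by 1.44 ± 0.11. The histone genes, looked at singly after their values were seen, did not all move one way. HHF2 rose by 2.33 ± 0.11 and HTB2 by 1.91 ± 0.17, while HTB1 fell by 0.62 ± 0.12 and HTA1 did not pass (-0.10 ± 0.13).

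Upstream windows of the DNA replication and histone list were read for ACGCGT, the letters of the MluI cell-cycle box that MBF recognises. The letters occurred in 27 of 49 of these windows (55.1%) and in 4.05% of the windows of all tested genes. The windows of RNR1 and POL30 hold 2 and 1 matches, in capitals:
RNR1 (chrV:298550-298849, plus strand): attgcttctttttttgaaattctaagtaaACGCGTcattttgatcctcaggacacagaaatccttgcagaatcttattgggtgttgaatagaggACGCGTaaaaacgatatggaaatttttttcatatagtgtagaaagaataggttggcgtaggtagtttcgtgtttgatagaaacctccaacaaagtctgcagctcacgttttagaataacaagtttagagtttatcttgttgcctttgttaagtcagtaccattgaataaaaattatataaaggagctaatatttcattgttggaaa
POL30 (chrII:425867-426166, minus strand): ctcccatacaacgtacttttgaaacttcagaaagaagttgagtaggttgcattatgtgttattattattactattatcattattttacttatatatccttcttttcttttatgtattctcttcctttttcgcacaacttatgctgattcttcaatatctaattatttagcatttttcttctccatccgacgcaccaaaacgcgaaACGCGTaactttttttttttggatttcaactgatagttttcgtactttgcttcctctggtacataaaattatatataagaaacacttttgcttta

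Mitotic genes did not share this rise. Of 45 mitosis and cytokinesis genes, 13 rose, 16 fell and 16 did not pass, with a median of -0.04, a division close to that of all genes. The anaphase activator gene CDC20 measured 14.7, 12.8 and 15.6 CPM in the doubly restricted libraries and 86.5, 74.8 and 93.4 CPM in the unrestricted ones, and fell by 2.56 ± 0.14 (edgeR adjusted p = 9.01e-07). FKH2, for a forkhead activator of mitotic genes, changed by -2.27 ± 0.11, and ALK1, for a kinase made in mitosis, by -2.01 ± 0.13. The cyclin gene CLB2 had low counts, at 4.55, 3.74 and 2.80 against 2.28, 2.30 and 1.93 CPM. Its groups did not overlap, but its difference of 0.78 ± 0.32 missed the threshold (edgeR adjusted p = 0.0605), which it passed without doubly restricted replicate 3 (edgeR adjusted p = 0.0322). AMN1, which antagonises mitotic exit and is made in daughter cells, rose by 2.75 ± 0.13.

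Cell wall genes, which include those for parting mother from daughter, rose more often than they fell. Of 43 members, 24 rose, 9 fell and 10 did not pass, with a median of 0.86. The chitinase gene CTS1 (chromosome XII, 708448 to 710136), which opens the septum, measured 3486, 3269 and 3233 CPM in the doubly restricted libraries and 132, 153 and 129 CPM in the unrestricted ones. The replicates of each group were close to each other, and CTS1 was 24.1-fold higher (4.59 ± 0.19, edgeR adjusted p = 2.35e-07). The cell separation genes DSE1, DSE2, SCW11 and EGT2 rose by 3.98 ± 0.16, 4.30 ± 0.22, 3.58 ± 0.16 and 3.17 ± 0.13. CTS1, DSE2, SCW10 and SCW11 were picked after their values were seen. The mannoprotein genes CWP1 and CIS3 rose by 4.09 ± 0.15 and 3.99 ± 0.13, and the glucanase-like gene SCW10 by 4.32 ± 0.19.

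Not all wall genes went up. PIR3, for another cross-linked wall protein, measured 734, 815 and 1094 CPM against 8230.0, 7281 and 8026 CPM and fell by 3.16 ± 0.23. SLT2, for the kinase of the cell wall integrity pathway, fell by 1.80 ± 0.18. PIR3 and CIS3 belong to the same protein family and moved in opposite directions.

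Carbon genes divided by pathway. Of 18 hexose transporter and glucose sensor genes, 8 rose, 3 fell and 7 did not pass. Without unrestricted replicate 2, 5 rose, close to the 27% of all genes that rose in that setting. Without doubly restricted replicate 3, 5 fell, a smaller share than the 37.1% of all genes that fell there. HXT2, for a high-affinity transporter, measured 108, 112 and 126 CPM in the doubly restricted libraries and 32.1, 36.7 and 36.8 CPM in the unrestricted ones. HXT3, for a low-affinity transporter, measured 388, 405 and 332 against 99.6, 102 and 97.8 CPM. In both the groups were well apart, with log2 fold changes of 1.71 ± 0.11 and 1.91 ± 0.12. HXT1 rose by 0.95 ± 0.15 and HXT7, which has the near-identical neighbour HXT6, by 1.04 ± 0.14. RGT2, for the sensor of high glucose, fell by 1.16 ± 0.10.

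Glycolysis and fermentation were lower, with 15 of 20 genes falling and 3 rising, and a median of -0.96. TDH1, a glyceraldehyde-3-phosphate dehydrogenase gene, measured 718, 760.4 and 881 CPM in the doubly restricted libraries and 8804, 7882 and 9117 CPM in the unrestricted ones. ENO1, an enolase gene, measured 976, 1028 and 1219 against 11303, 9455 and 10788 CPM. Both were about an order of magnitude lower under both restrictions, by -3.45 ± 0.20 and -3.29 ± 0.21 (edgeR adjusted p = 1.45e-06 and 2.24e-06). Isozymes of the same step did not move together: the other enolase gene, ENO2, measured 3258, 3312 and 2145 against 1305, 1246 and 1365 CPM and rose by 1.15 ± 0.21, a call lost in the fit to all 12 libraries (edgeR adjusted p = 0.0504). PYK2, the minor pyruvate kinase gene, rose by 1.23 ± 0.14, and PFK1, for a phosphofructokinase subunit, fell by 1.90 ± 0.17. PDC6, the minor pyruvate decarboxylase gene, fell by 2.21 ± 0.17.

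The tricarboxylic acid cycle was lower almost throughout: of 19 genes, 16 fell and 1 rose, with a median of -1.17. CIT1, the mitochondrial citrate synthase gene (chromosome XIV, 629622 to 631061), measured 629, 655 and 720.3 CPM against 3206, 2716 and 2975 CPM, and ACO1, the aconitase gene, 844, 863 and 956 CPM against 3665, 3387 and 3676 CPM. The groups did not overlap in either gene, and they changed by -2.15 ± 0.17 and -2.01 ± 0.17. The isocitrate dehydrogenase genes IDH1 and IDH2 changed by -1.72 ± 0.13 and -1.77 ± 0.14. The 1 riser was CIT3, another citrate synthase gene, at 1.59 ± 0.32, a call lost in the fit to all 12 libraries (edgeR adjusted p = 0.0792). Nuclear genes of the respiratory chain and ATP synthase fell in 23 of 36 and rose in 2 (median -0.65). The NADH dehydrogenase genes NDE1 and NDI1 changed by -2.37 ± 0.16 and -1.54 ± 0.12. This stood beside the rise in transcripts of the mitochondrial genome described above, in which the part of RNA recovery was not tested.

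Genes that glucose represses showed both directions: of 29, 14 rose, 11 fell and 4 did not pass. Their median was 0.47. ADH2, for the alcohol dehydrogenase that consumes ethanol (chromosome XIII, 873291 to 874337), measured 637, 727 and 1611 CPM in the doubly restricted libraries and 44.6, 40.4 and 38.3 CPM in the unrestricted ones, and SUC2, for invertase, 178, 219 and 341 against 89.8, 85.1 and 90.9 CPM. Doubly restricted replicate 3 was the highest in both genes, and every replicate exceeded the unrestricted ones (4.59 ± 0.37 and 1.47 ± 0.21). The glyoxylate cycle genes ICL1 and MLS1, which glucose also represses, moved the other way. MLS1 measured 138, 135 and 143 against 778, 773 and 819 CPM and fell by 2.51 ± 0.13, and ICL1, picked after its values were seen, fell by 2.47 ± 0.18. SIP4, for an activator of gluconeogenic genes, fell by 2.63 ± 0.12.

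Of 34 genes for fatty acid oxidation, carnitine and the peroxisome, 14 rose and 12 fell (median 0.05). IDP3, for the peroxisomal isocitrate dehydrogenase that supplies NADPH, measured 664, 850.4 and 807 CPM in the doubly restricted libraries and 38.6, 39.3 and 45.2 CPM in the unrestricted ones, 18.9-fold higher (4.24 ± 0.17). POX1, the acyl-CoA oxidase gene, rose by 3.29 ± 0.13, and the isomerase genes ECI1 and DCI1 by 3.68 ± 0.13 and 3.16 ± 0.13. The members that fell included the carnitine acetyltransferase gene YAT2 (-1.95 ± 0.19) and the import receptor gene PEX21 (-1.78 ± 0.11).

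**Figure D3:**
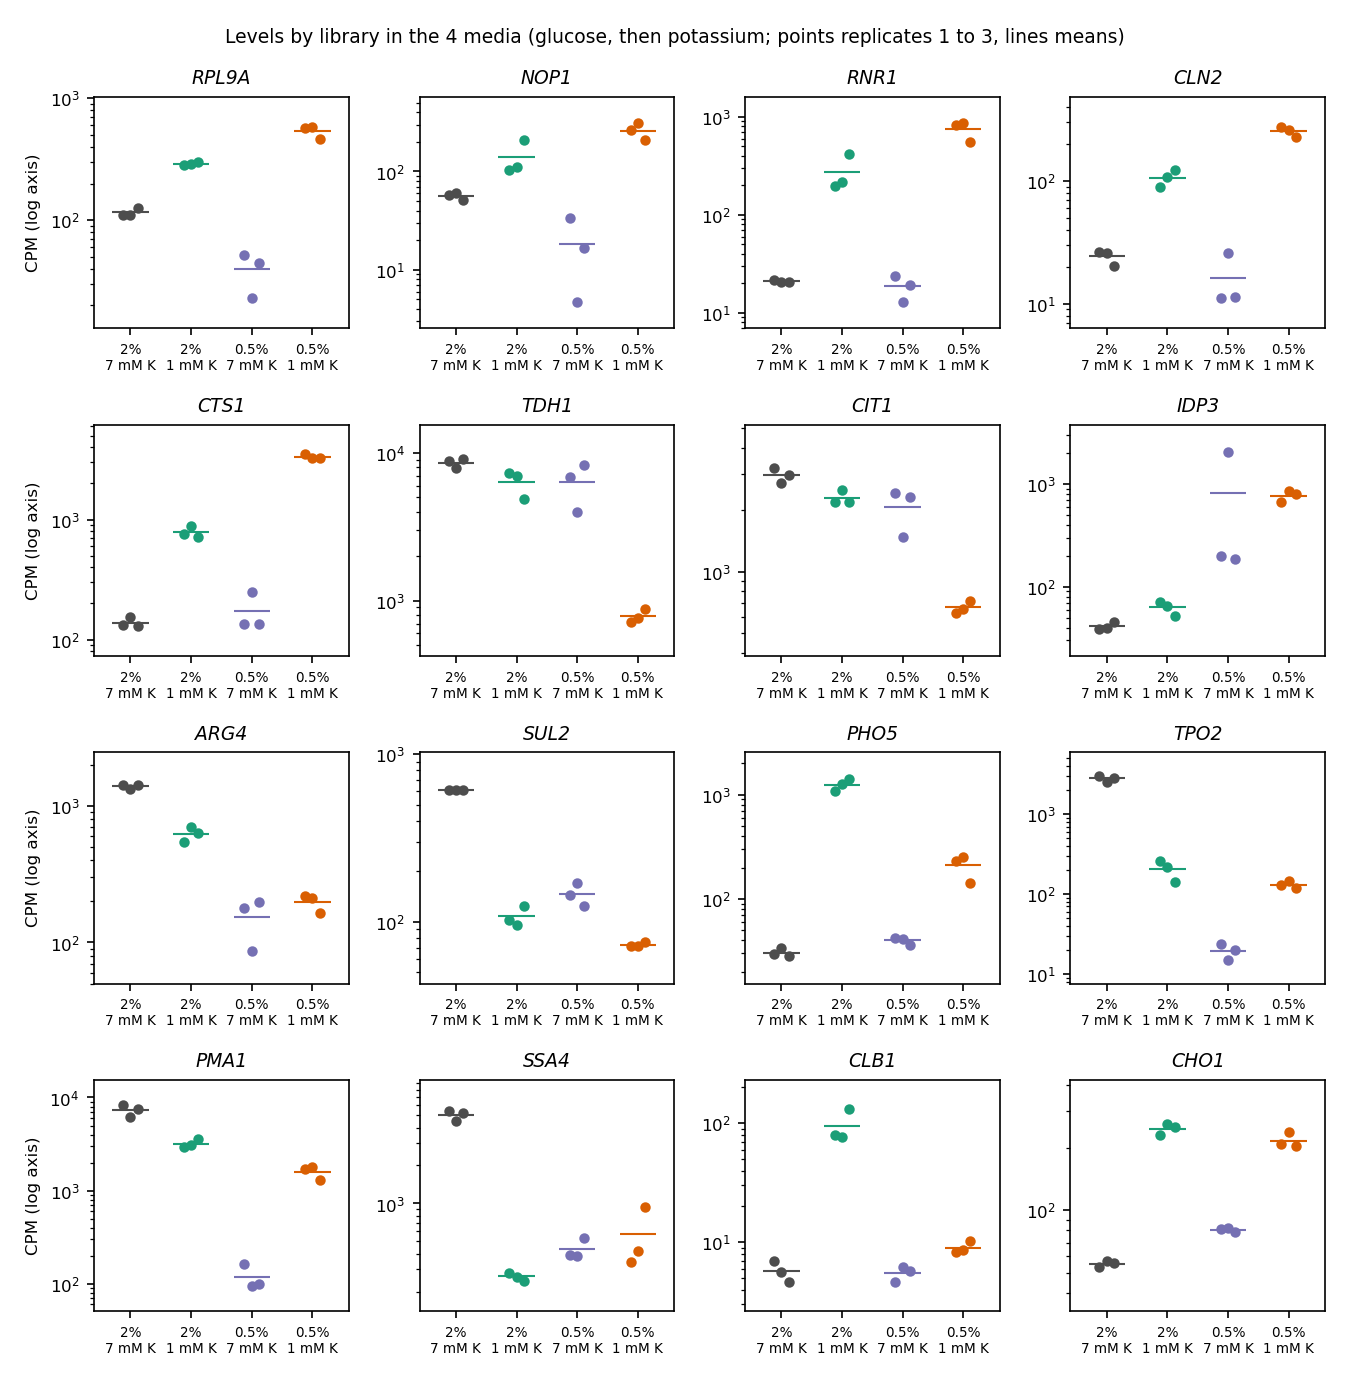
Level of 16 genes in CPM (log axes that do not start at 0) in each of the 12 libraries, by medium (percent glucose above mM potassium). Points are replicates 1 to 3 and horizontal lines are means; in each panel the 3 doubly restricted libraries, at the right, do not overlap the 3 unrestricted ones, at the left.

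Amino acid synthesis was lower in nearly every branch. All 10 arginine synthesis genes fell (median -1.66). The branched-chain genes fell in 10 of 11 cases (median -1.56), the aromatic genes in 8 of 13 (-1.04), the histidine genes in 4 of 6 (-0.81), the lysine genes in 4 of 8 (-0.37) and the remaining ones in 12 of 20 (-0.50). ARG4, for argininosuccinate lyase (chromosome VIII, 140011 to 141402), measured 218, 212 and 165 CPM in the doubly restricted libraries and 1434, 1331 and 1428 CPM in the unrestricted ones. HIS4, for an enzyme that catalyses several steps of histidine synthesis, measured 147, 144 and 96.7 against 1305, 1110.1 and 1373 CPM. The lowest unrestricted value was over 6-fold above the highest doubly restricted one in both genes, and they changed by -2.82 ± 0.17 and -3.29 ± 0.21 (edgeR adjusted p = 1.92e-06 and 2.28e-06).

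Further along the branches, ARG3 changed by -2.52 ± 0.17, ILV2, for acetolactate synthase, by -2.33 ± 0.16, ARO3, for the entry enzyme of the aromatic branch, by -2.65 ± 0.16, HOM3, for aspartate kinase, by -2.89 ± 0.17 and ASN1, for asparagine synthetase, by -2.54 ± 0.15. A few members rose. ARO7, the chorismate mutase gene, measured 37.0, 31.4 and 21.8 CPM against 5.21, 6.48 and 5.47 CPM and rose by 2.39 ± 0.23, and the cytosolic transaminase gene BAT2, which acts in branched-chain breakdown, rose by 1.17 ± 0.16. GCN4, for the activator of these pathways, is controlled mainly at translation, which these data do not measure. Its RNA, picked after its values were seen, measured 1071, 1058 and 1114 CPM against 1785, 1611 and 1829.9 CPM and fell by 0.69 ± 0.16.

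The letters TGACTCA, which Gcn4 recognises, occurred in 30 of 68 windows of the 6 amino acid synthesis lists (44.1%), in 8 of 10 of the arginine list (80.0%) and in 2.97% of the windows of all tested genes. The windows of ARG3 and ARG4 hold 1 match each:
ARG3 (chrX:268399-268698, plus strand): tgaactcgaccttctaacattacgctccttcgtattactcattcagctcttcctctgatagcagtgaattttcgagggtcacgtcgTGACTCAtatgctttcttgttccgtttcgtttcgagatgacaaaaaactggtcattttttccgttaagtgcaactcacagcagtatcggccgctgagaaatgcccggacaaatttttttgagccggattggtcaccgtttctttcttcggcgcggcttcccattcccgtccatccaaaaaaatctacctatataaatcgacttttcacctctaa
ARG4 (chrVIII:141503-141802, minus strand): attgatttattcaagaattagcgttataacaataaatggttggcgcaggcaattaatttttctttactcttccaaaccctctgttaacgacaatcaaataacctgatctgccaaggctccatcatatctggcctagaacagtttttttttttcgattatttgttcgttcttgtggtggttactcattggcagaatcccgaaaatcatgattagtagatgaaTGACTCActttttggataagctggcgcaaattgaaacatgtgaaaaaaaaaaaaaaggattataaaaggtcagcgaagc

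Sulfur genes were lower too. Of 33 genes for sulfate assimilation and methionine, 6 rose, 21 fell and 6 did not pass (median -0.81). SUL2, a sulfate permease gene, measured 71.6, 71.1 and 75.5 CPM in the doubly restricted libraries and 609.7, 614 and 614 CPM in the unrestricted ones, with replicates close to each other, and SUL2 fell by 3.07 ± 0.12 (edgeR adjusted p = 2.35e-07). The sulfite reductase genes MET5 and MET10 changed by -2.47 ± 0.14 and -2.19 ± 0.12. Among the members that rose, SAH1, for S-adenosylhomocysteine hydrolase, measured 457, 444 and 283 CPM against 50.5, 61.6 and 54.4 CPM and rose by 2.83 ± 0.20, and SAM2, for S-adenosylmethionine synthetase, rose by 1.20 ± 0.10.

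In purine synthesis, 4 of 17 genes rose and 8 fell; ADE17 fell by 1.83 ± 0.14, while IMD4 and IMD2, IMP dehydrogenase genes at the entry to guanine nucleotides, rose by 2.62 ± 0.23 and 3.80 ± 0.35. IMD2 measured 18.6, 19.4 and 12.2 CPM against 0.815, 1.87 and 0.804 CPM, so its fold rests on few counts in the unrestricted libraries. Amino acid and ammonium permease genes divided, 8 of 19 upward and 7 downward. The broad permease gene AGP1 measured 89.7, 85.0 and 99.9 against 711, 729.8 and 637 CPM and fell by 2.92 ± 0.14, and BAP3 fell by 2.64 ± 0.15. The proline permease gene PUT4 rose by 2.48 ± 0.20, the acidic amino acid permease gene DIP5 by 2.17 ± 0.14 and the glutamine permease gene GNP1 by 2.19 ± 0.17. Genes under nitrogen catabolite repression, which poor nitrogen sources induce, gave 8 of 22 upward and 9 downward. The 8 were 5 without unrestricted replicate 1, where 26.3% of all genes rose. They were 4 without its replicate 2 or 3, where 27% and 27.5% rose. They were 5 with all 12 libraries in the fit (22.8% of all genes) and under scaling by WBGene rows (22%). In none of these settings did the list clearly exceed the share of all genes. Among these nitrogen genes, the repressor gene DAL80 rose by 2.57 ± 0.38 and the GABA transaminase gene UGA1 fell by 2.04 ± 0.14.

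Phosphate genes rose more often than they fell. Of 29 phosphate response genes, 14 rose, 6 fell and 9 did not pass (median 0.27). PHO89 (chromosome II, 796798 to 798522) measured 447, 513 and 871 CPM in the doubly restricted libraries and 11.4, 15.8 and 11.3 CPM in the unrestricted ones, 47.3-fold higher. PHO5, for the secreted acid phosphatase (chromosome II, 429548 to 430951), measured 231, 255 and 142 against 29.3, 33.4 and 28.0 CPM, and PHO84, for the high-affinity phosphate transporter, 565, 585 and 369.7 against 106, 112 and 109.5 CPM. All doubly restricted values lay above all unrestricted ones, and the log2 fold changes were 5.56 ± 0.31, 2.79 ± 0.21 and 2.21 ± 0.18. The polyphosphate synthesis gene VTC1 rose by 1.20 ± 0.10. PHM8, for a nucleotide phosphatase, measured 99.9, 76.3 and 54.7 against 1032, 876 and 1006 CPM and fell by 3.65 ± 0.23.

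CACGTG, the letters that Pho4 and other helix-loop-helix factors such as Cbf1 recognise, was found in 17 of 29 windows of the phosphate list (58.6%), 18 of 33 of the sulfate list (54.5%) and 4.63% of all windows. The 1 match in each of the windows of PHO5 and PHO89 is in capitals:
PHO5 (chrII:431052-431351, minus strand): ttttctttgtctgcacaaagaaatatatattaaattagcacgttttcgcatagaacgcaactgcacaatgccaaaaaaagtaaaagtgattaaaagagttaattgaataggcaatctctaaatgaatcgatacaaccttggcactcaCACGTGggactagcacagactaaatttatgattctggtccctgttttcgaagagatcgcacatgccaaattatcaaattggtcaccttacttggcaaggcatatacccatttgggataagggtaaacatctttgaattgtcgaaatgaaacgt
PHO89 (chrII:798623-798922, minus strand): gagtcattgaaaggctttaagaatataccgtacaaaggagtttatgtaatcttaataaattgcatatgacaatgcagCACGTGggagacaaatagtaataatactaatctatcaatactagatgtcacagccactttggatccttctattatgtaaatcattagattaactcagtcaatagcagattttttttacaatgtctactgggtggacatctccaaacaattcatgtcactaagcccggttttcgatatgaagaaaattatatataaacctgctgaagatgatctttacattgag

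Among potassium, proton and sodium transport genes, 6 of 24 rose and 12 fell. PMA1, for the plasma membrane proton pump (chromosome VII, 479910 to 482666), measured 1713, 1780.3 and 1284 CPM in the doubly restricted libraries and 8245, 6206 and 7537 CPM in the unrestricted ones. It was 4.60-fold lower, with no overlap (-2.20 ± 0.22, edgeR adjusted p = 3.08e-05). The potassium importer genes moved apart: TRK1 measured 89.0, 90.9 and 84.5 against 150.1, 139 and 141 CPM and fell by 0.70 ± 0.09, and TRK2 measured 119, 119 and 261 against 84.9, 71.1 and 83.6 CPM and rose by 1.06 ± 0.28, with doubly restricted replicate 3 far above its partners. The outward channel gene TOK1 rose by 0.39 ± 0.09, a call lost under scaling by WBGene rows (edgeR adjusted p = 0.317). Other members of the list also fell. PTK2, for a kinase that activates Pma1, changed by -1.61 ± 0.14, PPZ1, for a phosphatase that restrains Trk transport, by -1.82 ± 0.17 and HAL1, for a salt tolerance protein, by -1.65 ± 0.11.

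The sodium exporter gene ENA1 rose by 0.92 ± 0.15. Its neighbour ENA2 had 0, 11 and 0 counts in the doubly restricted libraries and 132, 85 and 22 counts in the unrestricted ones. Its fall of -4.23 ± 0.96 was lost as a call without doubly restricted replicate 3 (edgeR adjusted p = 0.112), and the fitted value was -9.27 without doubly restricted replicate 2, the only one of its group with counts. The ENA genes are near-identical, so the division of reads among them is uncertain. KHA1, for an internal potassium and proton exchanger, rose by 1.02 ± 0.19.

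TPO2, an exporter of spermine (chromosome VII, 763762 to 765606), measured 129, 147 and 118 CPM in the doubly restricted libraries and 3045, 2562 and 2819.9 CPM in the unrestricted ones, 21.4-fold lower (-4.42 ± 0.19, edgeR adjusted p = 3.18e-07). TPO3 and TPO1 changed by -2.55 ± 0.25 and -1.80 ± 0.11, while the spermidine synthase gene SPE3 rose by 1.21 ± 0.13. Of the 16 genes of the list, 4 rose, 8 fell and 4 did not pass. In the calcium and calcineurin list, 3 of 15 rose and 5 fell; 3 fell without unrestricted replicate 3, with all 12 libraries in the fit or under scaling by WBGene rows. CRZ1, for the transcription factor that calcineurin activates, changed by -1.10 ± 0.11 and CMP2, for a calcineurin catalytic subunit, by -1.44 ± 0.13, and RCN2, for a calcineurin inhibitor, rose by 1.33 ± 0.34.

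Stress genes did not move as 1 body. Heat shock chaperones fell in 12 of 33 cases and rose in 6. Without doubly restricted replicate 3, in which the list lay higher than in its partners, 20 fell and 10 rose, where 36.6% of all genes rose and 37.1% fell (73.7% in either direction). SSA4, for the stress-inducible Hsp70 (chromosome V, 364589 to 366517), measured 343, 418 and 942 CPM in the doubly restricted libraries and 5447, 4491 and 5178 CPM in the unrestricted ones. Even the highest doubly restricted value was over 4-fold below the lowest unrestricted one (-3.15 ± 0.38, edgeR adjusted p = 9.00e-05). The exchange factor gene SSE2 changed by -2.43 ± 0.27 and the Hsp70 gene SSA1, near-identical to SSA2, by -1.75 ± 0.26. HSP104, the disaggregase gene, picked after its values were seen, fell by 1.54 ± 0.27. Risers included SBA1, an Hsp90 cochaperone gene (1.40 ± 0.14), and SSB1, for the Hsp70 that binds to ribosomes (1.39 ± 0.21), whose call was lost in the fit to all 12 libraries (edgeR adjusted p = 0.0842).

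General stress genes, many of them targets of Msn2 and Msn4, rose in 21 of 48 cases and fell in 14. The membrane protectant gene HSP12 measured 4409, 4848 and 6171 CPM against 1612, 1618 and 1614 CPM and rose by 1.67 ± 0.20. The hydrophilin gene SIP18 rose by 3.12 ± 0.26, its relative GRE1, chosen after its values were seen, by 3.72 ± 0.35, and the thioredoxin reductase gene TRR1 by 1.54 ± 0.11. SPI1, a wall protein gene, rose by 2.17 ± 0.40, or 1.51 without doubly restricted replicate 3. MSN4, the stress factor gene itself (chromosome XI, 323228 to 325120), measured 121, 118 and 127 CPM in the doubly restricted libraries and 1643, 1345 and 1657 CPM in the unrestricted ones. It was 12.7-fold lower, while 21 of the stress genes listed rose (-3.67 ± 0.17, edgeR adjusted p = 4.24e-07).

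Storage carbohydrate genes fell more often than they rose, with 12 of 22 down and 4 up (median -0.50). GAC1, for a subunit that directs the phosphatase activating glycogen synthase, changed by -2.40 ± 0.20, the trehalase gene NTH2 by -1.47 ± 0.13 and the major phosphoglucomutase gene PGM2 by -2.05 ± 0.19. Its minor isozyme PGM1 rose by 2.08 ± 0.11. Of the autophagy genes, 19 of 42 fell and 10 rose. ATG8, for the protein that coats the growing autophagosome (chromosome II, 80378 to 80731), measured 629.6, 758 and 1029 CPM against 203, 182 and 191 CPM and rose by 2.07 ± 0.20. ATG41 measured 17.7, 20.7 and 26.8 against 172, 138 and 147 CPM and fell by 2.82 ± 0.16, VPS15, for a regulator of the autophagy lipid kinase, changed by -1.82 ± 0.14 and the cargo gene APE1 by -1.41 ± 0.11. Proteasome subunit genes moved little: 6 of 35 rose and 12 fell, all with log2 fold changes between -0.67 and 0.78. Without unrestricted replicate 2 the number that rose was 3, where 27% of all genes rose. Without doubly restricted replicate 3 the number was 10, where 36.6% of all genes rose. Both are smaller shares of the list than of all genes.

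Phospholipid genes had the highest median of the 38 pathway lists. Of 21 inositol and phospholipid synthesis genes, 17 rose, 3 fell and 1 did not pass, with a median of 1.39. CHO1, for phosphatidylserine synthase (chromosome V, 207644 to 208474), measured 207, 237 and 204 CPM in the doubly restricted libraries and 53.1, 57.3 and 55.8 CPM in the unrestricted ones. Each group was narrow and they did not overlap (1.96 ± 0.11, edgeR adjusted p = 9.01e-07). The ethanolamine kinase gene EKI1 rose by 2.93 ± 0.15, the phosphatidylserine decarboxylase gene PSD1 by 2.01 ± 0.14 and the cholinephosphotransferase gene CPT1 by 1.59 ± 0.10. INO2, for the activator of these genes, rose by 3.12 ± 0.39, or 2.49 without doubly restricted replicate 3; it was picked after its values were seen. The inositol transporter gene ITR2 and the phosphatidylcholine synthesis gene PCT1 changed by -0.89 ± 0.13 and -0.79 ± 0.11.

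Of 28 ergosterol synthesis genes, 11 rose, 9 fell and 8 did not pass. ERG6, for the sterol methyltransferase, measured 216, 216 and 157 CPM against 30.3, 33.5 and 34.4 CPM and rose by 2.59 ± 0.15, and ERG4 rose by 1.65 ± 0.18. ERG28, for the scaffold of the demethylation complex, changed by -1.49 ± 0.17, and the hypoxic repressor gene ROX1 by -1.08 ± 0.12. In the iron regulon, 17 of 33 genes fell and 5 rose (median -0.39); 3 rose without unrestricted replicate 3, and 2 with all 12 libraries in the fit or under scaling by WBGene rows. The biotin transporter gene VHT1, an Aft1 target, changed by -2.91 ± 0.11, and CCC2, for the copper pump that serves iron uptake, by -1.61 ± 0.10. ISU1, for the scaffold of iron-sulfur clusters, rose by 1.33 ± 0.19. In the zinc regulon, 6 of 15 fell and 2 rose, or 10 and 3 without doubly restricted replicate 3; the transporter genes ZRT1 and ZRT2 changed by -1.78 ± 0.26 and -1.54 ± 0.17.

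Among nutrient signalling and lifespan genes, 23 of 50 fell and 13 rose. YPK2, for a kinase downstream of TORC2, measured 156, 143 and 156 CPM in the doubly restricted libraries and 1571, 1350.0 and 1521 CPM in the unrestricted ones and fell by 3.29 ± 0.16. TOS3 and SAK1, for kinases that activate Snf1, changed by -2.93 ± 0.17 and -1.03 ± 0.10, and PDE1, for a cyclic AMP phosphodiesterase, by -2.33 ± 0.15. RAS1 rose by 1.63 ± 0.15, and IGO2, for a phosphatase inhibitor needed for quiescence, by 1.88 ± 0.15. In the meiosis and sporulation list, 12 of 38 rose and 9 fell, close to the shares of all genes. The septin gene SPR28 measured 28.5, 29.6 and 36.8 CPM against 2.61, 2.45 and 1.61 CPM and rose by 3.81 ± 0.23, and REC8, for the meiotic cohesin subunit, fell by 1.73 ± 0.17.

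**Figure D4:**
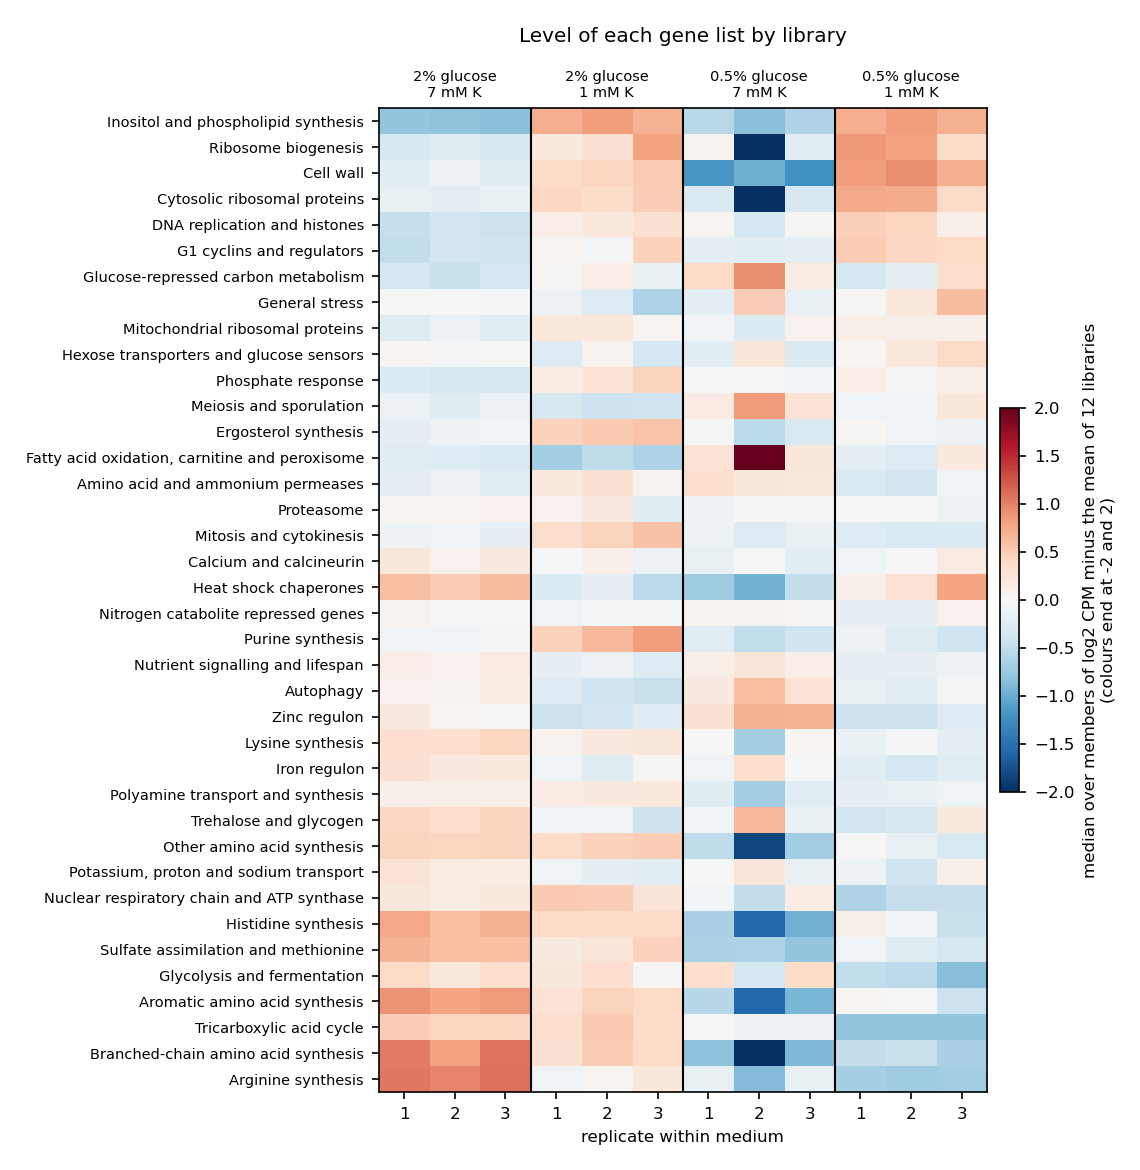
Level of each gene list in each of the 12 libraries: the median over members of log2 CPM minus the gene's mean over the 12 libraries, red above and blue below, with colours ending at -2 and 2. The doubly restricted libraries are the 3 columns at the right and the unrestricted ones the 3 at the left; in the column for 0.5% glucose 7 mM K, replicate 2 differs from its partners in several lists.

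The doubly restricted medium was also set against each single restriction, comparisons that share its 3 libraries with the results above. Against 2% glucose 1 mM K, where potassium alone was low, 1235 genes were higher and 1325 lower (20.2% and 21.6% of the genes tested); the split was 754 to 1776 with libraries scaled by their totals and 592 to 2491 with scaling by WBGene rows. Against 0.5% glucose 7 mM K, where glucose alone was low, 857 were higher and 955 lower (14.0% and 15.6%), or 394 and 1097 with scaling by WBGene rows. On the TMM scale the counts were 1586 and 1525 (25.7% and 24.7%) without 0.5% glucose 7 mM K replicate 2, which stood apart from its partners with 1429 genes over 2-fold above or below both of them. Values against glucose restriction alone are given below without that library unless said otherwise.

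Tricarboxylic acid cycle genes were lower in the doubly restricted medium than in either single restriction: 16 of 19 against potassium restriction alone (median -1.16) and 15 of 19 against glucose restriction alone (median -0.83). With all 3 libraries of low glucose alone, the last count was 8 of 19 (median -0.74), where 15.6% of all genes were lower. CIT1 measured 2185, 2512 and 2195 CPM with low potassium alone and 2405, 1478 and 2302 CPM with low glucose alone, above the doubly restricted values given before. The differences were -1.78 ± 0.20 (edgeR adjusted p = 0.000116) and -1.81 ± 0.23 (edgeR adjusted p = 0.000563). TDH1 of glycolysis measured 7284, 6943 and 4909 and 6896, 3989 and 8267 CPM in these 2 media, and the doubly restricted one differed from them by -3.02 ± 0.26 and -3.26 ± 0.27. The interaction compares the joint change with the sum of the single changes on the log2 scale, and for TDH1 it was -2.59 ± 0.42 (edgeR adjusted p = 0.00099).

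Mitotic genes were lower than under potassium restriction alone, in 29 of 45 cases against 4 higher, with a median of -0.78. The cyclin gene CLB2 measured 24.7, 22.7 and 48.2 CPM with low potassium alone and 4.55, 3.74 and 2.80 CPM with both low, a difference of -3.09 ± 0.35 (edgeR adjusted p = 0.00011). CLB1, its paralog, picked after its values were seen, measured 80.1, 75.9 and 130.5 CPM against 8.19, 8.56 and 10.2 CPM. The G1 cyclin gene CLN2 measured 89.1, 108 and 123 CPM with low potassium alone and was higher with both low by 1.25 ± 0.17 (edgeR adjusted p = 0.000277). Against glucose restriction alone, CLN2 was higher by 4.51 ± 0.18 and RNR1 by 5.13 ± 0.32.

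Cell wall genes were higher with both restrictions than with either alone in more cases than they were lower. Against glucose restriction alone 29 of 43 were higher and 5 lower (median 2.35), or 24 and 5 with all 3 libraries of low glucose alone (median 1.855). Against potassium restriction alone 21 were higher and 6 lower (median 0.50). CTS1 measured 761, 885 and 709.8 CPM with low potassium alone and 135, 249 and 134 CPM with low glucose alone, and exceeded them with both low by 2.08 ± 0.21 and 4.64 ± 0.30 (edgeR adjusted p = 6.58e-05 and 2.78e-05). Of 33 heat shock chaperone genes, 16 were higher with both low than with potassium alone low and 17 did not pass (median 0.69). Against glucose alone low, 17 were higher and 16 did not pass (median 0.87). With all 3 libraries of low glucose alone, 14 were higher and 19 did not pass (median 0.93). The interaction, fitted to all 12 libraries, passed in either direction for 29.9% of all genes. It passed above 0 for 25 of 33 chaperone genes, against 14.8% of all genes, and the other 8 did not pass. SSA4 measured 284, 263 and 245 CPM with low potassium alone and 389.7, 386 and 529.8 CPM with low glucose alone. All 3 values with low potassium alone lay below the doubly restricted ones, while those with low glucose alone overlapped them, and its interaction was 4.64 ± 0.51 (edgeR adjusted p = 9.63e-05).

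**Figure D5:**
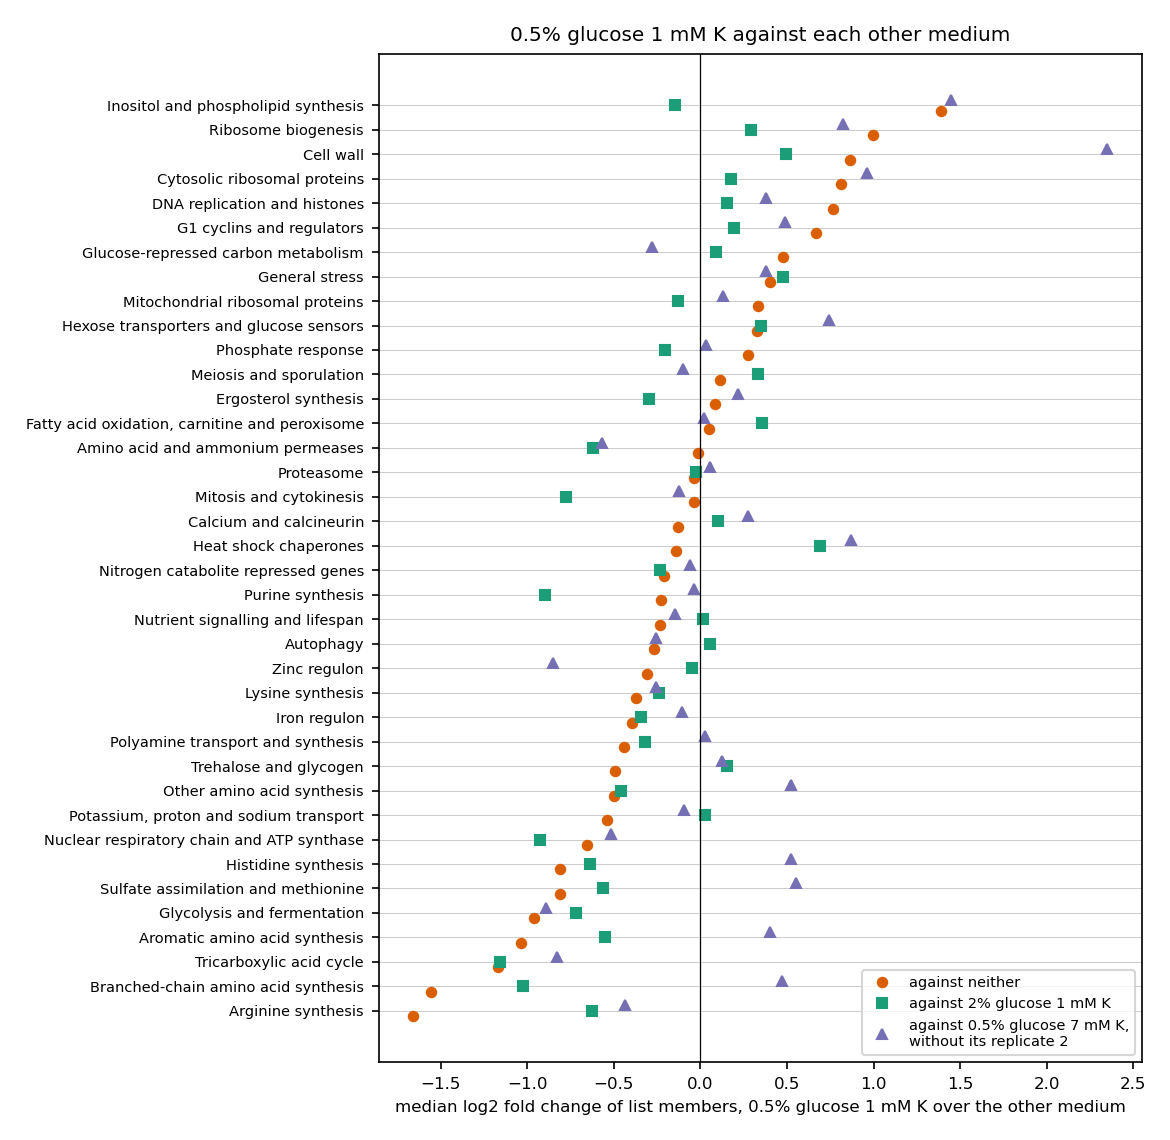
Median log2 fold change of each gene list, 0.5% glucose 1 mM K over 2% glucose 7 mM K (circles), over 2% glucose 1 mM K (squares) and over 0.5% glucose 7 mM K without its replicate 2 (triangles); all 3 comparisons share the 0.5% glucose 1 mM K libraries. Tricarboxylic acid cycle medians lie below 0 in all 3, and heat shock chaperone medians lie above 0 against both single restrictions and below 0 against the unrestricted medium.

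Some genes lay between the levels of the single restrictions or at the level of one of them. Against potassium restriction alone, 13 of 134 ribosomal protein genes and 13 of 95 biogenesis genes were higher (medians 0.18 and 0.29). These were 9.7% and 13.7%, against 20.2% of all genes. Against glucose restriction alone, 109 and 64 were higher (81.3% and 67.4%), against 25.7% of all genes. With all 3 libraries of low glucose alone they were 40 and 17 (29.9% and 17.9%), against 14.0% of all genes. The branched-chain amino acid list had a median of -1.02 against potassium restriction alone and 0.47 against glucose restriction alone, or 0.72 with all 3 libraries of the latter. HIS4 measured 533, 564 and 689 CPM with low potassium alone and 121, 68.0 and 104 CPM with low glucose alone. With both low it differed from the former by -2.21 ± 0.22 (edgeR adjusted p = 5.06e-05), while its difference from the latter, 0.21 ± 0.20, had an edgeR adjusted p of 0.414. For PMA1 the order was wider. It measured 2944, 3058 and 3611 CPM with low potassium alone and 161, 94.7 and 99.8 CPM with low glucose alone, and the doubly restricted medium differed from the former by -1.01 ± 0.23 and from the latter by 3.62 ± 0.34 (edgeR adjusted p = 0.00526 and 0.000149).

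The phosphate genes PHO5, PHO84 and PHO89 were lower with both restrictions than with low potassium alone. PHO5 measured 1092, 1262 and 1400.5 CPM and PHO84 1116, 1249.9 and 2609.5 CPM with low potassium alone, and the differences were -2.58 ± 0.26 and -1.71 ± 0.34 (edgeR adjusted p = 5.56e-05 and 0.00274). PHO89 measured 1385, 1367 and 1099 CPM there, and its difference was -1.07 ± 0.27 (edgeR adjusted p = 0.00934). Of the phospholipid genes, 5 were higher and 7 lower than under low potassium alone (median -0.15), and 17 higher and 2 lower than under low glucose alone (median 1.45), or 15 higher with all 3 libraries of low glucose alone (median 1.42). CHO1 measured 229, 260.4 and 252 CPM with low potassium alone and 80.9, 82.4 and 78.8 CPM with low glucose alone, and its difference from the former was -0.19 ± 0.15 (edgeR adjusted p = 0.336).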

How the data were processed

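RNA from 12 cultures was sequenced, and the deposited table holds estimated counts per gene, which the authors made with STAR 2.7.1a and RSEM 1.3.3 on yeast build R64, per the submitters' processing notes. All deposited values were whole numbers, so no rounding was needed. The strand of the libraries was not given in the sources used here. The 7127 rows with yeast identifiers were used, of which 6444 (90.4%) matched a gene name in RefSeq's R64 annotation, and the 39777 rows with WBGene identifiers, which carried 34.0% to 41.6% of counts, were left out. Overlapping genes share reads, and near-identical copies are uncertain.

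Genes were filtered with filterByExpr and libraries scaled by TMM over all 12 libraries. Each comparison was fitted on its own 6 libraries with edgeR 4.0.16 (R 4.3.3), by the robust quasi-likelihood test, with Benjamini-Hochberg adjustment over the 6127 genes tested. A single fit of all 12 libraries served as an alternative, because 0.5% glucose 7 mM K replicate 2 stands apart. The interaction was fitted on all 12 libraries. The fit of the doubly restricted against the unrestricted medium was tried on simulated counts. Their spread came from the 3 unrestricted libraries, so the spread of the doubly restricted ones was not covered. The other comparisons and the interaction were not run on such counts. At 5634205 to 7036345 yeast counts per library, counting error is small for all but the lowest genes. The alternatives were DESeq2 1.42.0, limma voom 3.58.1, other scalings and filters, a fold threshold of 1.5 (glmTreat), all 12 or 11 libraries in the fit, a replicate block and each library left out in turn. Counts of gene lists without doubly restricted replicate 3 and without 0.5% glucose 7 mM K replicate 2 were chosen after seeing the data.

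The members and gene lists were chosen with earlier results of these data known. Genes were named by a rule: among called genes averaging 10 CPM or more whose groups do not overlap, the 10 largest rises and 10 largest falls, up to 4 called genes with the smallest p in each list's main direction and up to 2 in the other, a list of transport, phosphate, sugar, stress and cell-cycle genes, strain markers and the 4 highest and 4 lowest genes of the interaction. A gene that the rule names is not reported here. Upstream windows were read for 10 motifs on both strands, of which 4 are given; a match may overlap that of another motif, and the supplied genome of build R64 was used.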

Additional observations from a re-analysis of the deposited data

Results flagged for a closer look

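The effects of the 2 restrictions did not add on the log2 scale for 1835 of 6127 genes (29.9%), 904 with an interaction above 0 and 931 below 0 in edgeR's fit to all 12 libraries. Without 0.5% glucose 7 mM K replicate 2 the counts were 1475 and 1452 (23.9% and 23.6%). Among the highest interactions were TPO2, the polyamine exporter gene, at 6.51, the wall protein gene SPI1 at 5.97, the hexose transporter gene HXT4 at 5.13 and the mitochondrial intron reading frame BI4 at 5.05. Without 0.5% glucose 7 mM K replicate 2 these were 6.35, 6.83, 5.72 and 5.86. TPO2 measured 262, 219.7 and 141 CPM with low potassium alone and 23.5, 14.8 and 19.9 CPM with low glucose alone. HXT4 measured 208, 235 and 189 CPM with both low, 294, 211 and 255 CPM with neither, 73.9, 106 and 48.7 CPM with low potassium alone and 20.4, 34.1 and 5.99 CPM with low glucose alone, and its change between the doubly restricted and the unrestricted medium did not pass (-0.26 ± 0.15).

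The lowest interactions were those of the near-identical and sparsely counted ENA2 at -7.58, the alcohol dehydrogenase gene ADH2 at -7.02, the pyruvate decarboxylase gene PDC6 at -6.71 and the phosphate transporter gene PHO89 at -5.89. Without 0.5% glucose 7 mM K replicate 2 they were -7.70, -4.06, -7.16 and -6.40, so the size of the ADH2 value rests largely on that library. ADH2 measured 401, 555 and 446 CPM with low potassium alone and 2184, 30994 and 724 CPM with low glucose alone, and PHO89 measured 678, 54.6 and 357 CPM with low glucose alone. These genes were named as the 4 highest and 4 lowest interactions that passed, among genes averaging 10 CPM or more. Their adjusted p values come from the values that selected them (edgeR adjusted p = 6.52e-06 for TPO2, 0.00475 for ADH2 and 0.000853 for PHO89).

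Rows with WBGene identifiers, which the comparisons do not use, held between 34.0% and 41.6% of the counts of each library. Among the 6 libraries compared, the share was highest in doubly restricted replicate 2 and unrestricted replicate 3.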

How the results depend on the processing

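Under the alternatives run, the direction counts of 2010 and 1931 genes stayed within 1.5 times, except with a fold threshold of 1.5, which left 1007 higher and 934 lower, as fewer genes can pass it. With all 12 libraries in the fit they were 1400 and 1504. Leaving out single libraries gave 1624 to 2253 higher and 1630 to 2286 lower. Against low potassium alone, scaling by library totals gave 754 higher, and scaling by WBGene rows 592 higher and 2491 lower. Leaving out single libraries gave 897 to 1227 higher and 1078 to 1367 lower. Against low glucose alone, the values were 539 higher with library totals, 394 higher with WBGene rows, and 337 to 1586 higher and 281 to 1525 lower without single libraries. The extremes came without doubly restricted replicate 2 (337 and 281) and without 0.5% glucose 7 mM K replicate 2 (1586 and 1525). The counts were 420 and 416 without doubly restricted replicate 1, 526 and 576 without its replicate 3, and 449 and 580 without 0.5% glucose 7 mM K replicate 3. The interaction counts were 548 higher with library totals, against 1247 lower, 340 higher and 1636 lower with WBGene rows, and 660 to 1475 higher and 685 to 1452 lower without single libraries. The causes were not tested.

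Replicate numbers were not treated as pairs. Same-numbered doubly restricted and unrestricted libraries deviated from their group means with correlations of -0.109, 0.0656 and 0.0483. Deviations of 3 libraries sum to 0 within a group, so these values cannot exclude a pairing. With the replicate number as a block, 1975 genes were higher and 1903 lower, against low potassium alone 942 and 1075, against low glucose alone 497 and 410, and for the interaction 776 and 758.

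The 1.5-fold threshold left 57 in place of 118 ribosomal protein genes rising. In the 12-library fit, beside the ribosomal lists given above, fatty acid genes that fell went from 12 to 7, ergosterol genes that fell from 9 to 3, glucose-repressed genes that rose from 14 to 9 and hexose transporter genes that rose from 8 to 5. Scaling by library totals left 5 in place of 12 proteasome genes falling, and scaling by WBGene rows 1 in place of 6 rising. List counts of 1 or 2 genes in a direction moved by 1 when some single libraries were left out. Depth limits genes near 10 CPM or less, among them the mitochondrial transcripts, of which 1 of 5 remained tested and called with a minimum of 50 counts in 3 libraries.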

Other observations

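The genes below lie outside the gene lists and were chosen after their low values were seen, so nothing follows from them for thiamine or biotin genes as a group. THI4, for the synthesis of the thiazole ring of thiamine, measured 83.8, 68.1 and 72.5 CPM in the doubly restricted libraries and 1161, 1209 and 1051 CPM in the unrestricted ones. No doubly restricted value came near an unrestricted one, and the log2 fold change was -3.93 ± 0.17 (edgeR adjusted p = 2.86e-07). THI2, for an activator of thiamine genes, fell by 3.82 ± 0.11, and THI73, for a permease under thiamine control, fell by 3.87 ± 0.14. BIO4, for dethiobiotin synthetase, measured 13.5, 11.2 and 15.6 CPM against 199.8, 162 and 187 CPM and fell by 3.77 ± 0.15. BIO2, for biotin synthase, changed by -2.14 ± 0.10, and BPL1, for the ligase that attaches biotin, by -0.71 ± 0.14. How these genes stood against the single restrictions is not reported here.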
